A study of Mus musculus with 2 samples.

Results

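Ly49-bearing T cells are T cells that also transcribe genes of the Ly49 family, receptors better known from natural killer (NK) cells. They were chosen here by unique molecular identifiers (UMIs, one per captured RNA molecule) in single-cell RNA sequencing of CD45+ immune cells sorted from tumours. A cell was kept if it showed 200 or more genes and drew no more than 20% of its UMIs from mitochondrial genes. A member had at least 2 UMIs of the CD3 genes Cd3d, Cd3e and Cd3g together and at least 1 UMI of Klra1, Klra6 or Klra7. It had no UMI of Ncr1 (the NK receptor NKp46), Foxp3 (regulatory T cells) or Gzmk, fewer than 3 of Gzmf and fewer than 2 of the cycling genes Mki67 and Top2a. This rule found 533 of 12252 cells, 326 of 6419 in the control library and 207 of 5833 in the thonzonium library. The rule was built on these same counts, so the levels of its 12 genes are given as descriptions.

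The mice were wild-type BALB/c mice bearing subcutaneous tumours of the MFC cell line. The control group is labelled PBS, and the other group received thonzonium bromide, a quaternary ammonium compound, at 50 mg/kg every other day from day 6. All were killed on day 10. Both samples carry one treatment text that names only the compound, and neither the age and sex of the mice nor the number of animals pooled per library is stated. Each group is 1 library, so there is no replicate and no test. Every difference below describes these 2 libraries, and every interval is a 95% interval for counting error only. Values are given for the control library first and the thonzonium library second unless a sentence says otherwise.

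The libraries held 46348444 and 52973138 UMIs over 7803 and 6724 barcodes. The kept members had a median of 6169 and 7882 UMIs per cell, with ranges of 694 to 24893 and 1279 to 22474. Their median mitochondrial share was 3.52% and 4.11% of UMIs. The libraries shared 14 barcodes, and 0 of the members carried one of them. Haemoglobin and other erythroid marker RNA differed strongly between the libraries: it made up 23922 CPM (counts per 1000000 UMIs of a class) in control members and 1722 CPM in thonzonium members.

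Ly49 receptors are C-type lectin-like proteins encoded by the Klra genes, which sit side by side on mouse chromosome 6 in the NK gene complex. Most of them bind MHC class I and carry an inhibitory motif in the cytoplasmic tail, among them Ly49A (Klra1) and Ly49G (Klra7). Ly49D (Klra4) and Ly49H (Klra8) instead activate the cell through the adaptor DAP12, the product of Tyrobp. T cells with Ly49 receptors are known among memory-phenotype and regulatory CD8 T cells, NKT cells and gamma-delta T cells. The family varies between mouse strains, and its members are close in sequence, so reads from one can be counted to another. The genome used for counting, mm10, is that of C57BL/6J and not of BALB/c.

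Some of the Ly49 genes are also alike in the DNA just before their start sites. The 250 bases before the start are shown for Klra6 and Klra7, which the rule used, and for Klra4 and Klra8, to whose gene models few UMIs of members were counted. All are from RefSeq on GRCm38.p6, minus strand, and are bases of that reference and not of BALB/c. The windows are chr6:130026955-130027204 (Klra6), chr6:130233323-130233572 (Klra7), chr6:130067272-130067521 (Klra4) and chr6:130129899-130130148 (Klra8). Capitals mark the letters CTTTGA, the core of the motif read by TCF-1, a T cell transcription factor encoded by Tcf7 and known to act on Ly49A expression.
Klra6: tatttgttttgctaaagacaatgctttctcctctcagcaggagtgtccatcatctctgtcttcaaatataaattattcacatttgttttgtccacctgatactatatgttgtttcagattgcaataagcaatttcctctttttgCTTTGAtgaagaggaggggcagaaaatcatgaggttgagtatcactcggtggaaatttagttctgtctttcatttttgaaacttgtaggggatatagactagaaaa
Klra7: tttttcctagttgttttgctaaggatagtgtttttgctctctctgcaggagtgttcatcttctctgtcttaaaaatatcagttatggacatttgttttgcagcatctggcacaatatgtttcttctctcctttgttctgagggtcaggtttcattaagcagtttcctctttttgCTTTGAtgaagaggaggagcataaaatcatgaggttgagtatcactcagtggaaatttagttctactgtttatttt
Klra4: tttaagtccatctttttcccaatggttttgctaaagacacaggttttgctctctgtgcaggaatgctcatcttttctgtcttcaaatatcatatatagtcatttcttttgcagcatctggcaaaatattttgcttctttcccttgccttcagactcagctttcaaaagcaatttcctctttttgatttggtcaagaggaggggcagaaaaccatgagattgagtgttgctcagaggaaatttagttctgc
Klra8: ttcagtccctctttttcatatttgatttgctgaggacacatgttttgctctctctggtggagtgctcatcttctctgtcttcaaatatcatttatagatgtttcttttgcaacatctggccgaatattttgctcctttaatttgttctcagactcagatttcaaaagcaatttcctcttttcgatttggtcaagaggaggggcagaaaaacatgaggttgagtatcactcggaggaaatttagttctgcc
Both strands were searched for CTTTGA in windows of 300 bases (250 before and 50 after the start), and no second motif was searched. It stood in 3 of 13 windows at Ly49 gene starts (1 at Klra6 and 2 at separate Klra7 starts) and in 16.0% of all 32851 promoter windows. It began at position 145 of the printed Klra6 sequence and 175 of the printed Klra7 sequence, counted from the left. Klra1, the other rule gene, had no match in its window, and neither did Klra4 or Klra8. Over the promoter windows, Klra6 and Klra7 matched at 86.2% of 261 aligned bases and Klra4 and Klra8 at 86.6% of 299. The window of Klra1 was less alike, with 71.3% of only 122 aligned bases for Klra6 and 65.5% of 58 for Klra7. A match is a description of the letters and not a binding site, and a window without a match shows only that these letters are not in it. Tcf7 itself was at 239.6 and 221 CPM in members, against 170.1 and 179 CPM in T cells without these Ly49 UMIs (1.41-fold and 1.24-fold). It was 2.23-fold higher in the thonzonium library after thinning each cell to 1000 UMIs and applying the rule again.

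Klra7 gave the most UMIs of the rule genes. It lies at chr6:130218605-130233322, Klra1 at chr6:130363917-130386874 and Klra6 at chr6:130013033-130026954, all on the minus strand of GRCm38. Klra7 was at 519 CPM (489 to 550.4) in control members and 533 CPM (499 to 569) in thonzonium members. Klra1 was at 219.6 CPM (200.3 to 240.3) and 274 CPM (249 to 299.8). Klra6 was at 130.5 CPM (116 to 147) and 137 CPM (120.4 to 156). The intervals of the libraries overlapped for Klra7 and Klra6 and not for Klra1. In NK cells Klra7 was at 420.2 and 429 CPM, the closest of the rule genes to its level in members. Klra1 was at 65.6 and 74.6 CPM in NK cells, and Klra6 at 11.4 and 12.5 CPM, both under the members in each library. NK cells here are cells with at least 1 Ncr1 UMI, no CD3 UMI and fewer than 2 of Mki67 and Top2a, 722 and 822 cells. The members were selected to hold a Ly49 UMI and the NK cells were not, which moves these levels apart by construction.

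A single Ly49 gene of the rule was the most common finding in control members, and combinations made up more than that in thonzonium members. Klra7 alone was seen in 125 of 326 control members (38.3%) and 50 of 207 thonzonium members (24.2%). Klra1 alone was seen in 38 (11.7%) and 29 (14.0%), and Klra6 alone in 28 (8.59%) and 13 (6.28%). All 3 genes were seen together in 39 (12%) and 31 (15.0%). Counting every combination, Klra7 was found in 77.0% and 74.4% of members, Klra1 in 36.2% and 52.2% and Klra6 in 40.2% and 44.0%.

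Among the other Ly49 genes, UMIs counted to the gene models of the activating receptors differed most between members and NK cells. Klra4 was at 15.8 and 16.4 CPM in members and at 313 and 448 CPM in NK cells. Klra8 was at 24.6 and 13.5 CPM in members and at 287 and 393 CPM in NK cells. Both were lower in members, with ratios of 0.0504 and 0.0367 for Klra4 and 0.0856 and 0.0344 for Klra8. Under a stricter gate of at least 3 CD3 and 2 Ly49 UMIs the thonzonium ratios were 0.00609 and 0.00869. In thonzonium members 1 cell gave 60.7% of the Klra4 UMIs and 69.6% of the Klra8 UMIs. Klra9 and Klra3 were at 43.2 and 51.7 CPM and at 32.5 and 38.2 CPM in members, against 131 and 193 CPM and 108 and 128 CPM in NK cells. Klra5 was at 20.4 and 38.8 CPM in members and 21.0 and 22.8 CPM in NK cells. Transcripts of Klra3 and Klra9 matched at 96.2% of bases, Klra6 and Klra9 at 91.6% and Klra1 and Klra7 at 89.0%. Klra8 matched Klra9 at 91.5% and Klra4 matched Klra1 at 88.8%. The split of counts among all Ly49 genes is therefore uncertain, and which BALB/c genes gave the reads counted to an mm10 gene, Klra4 and Klra8 included, cannot be told from these counts.

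**Figure D1:**
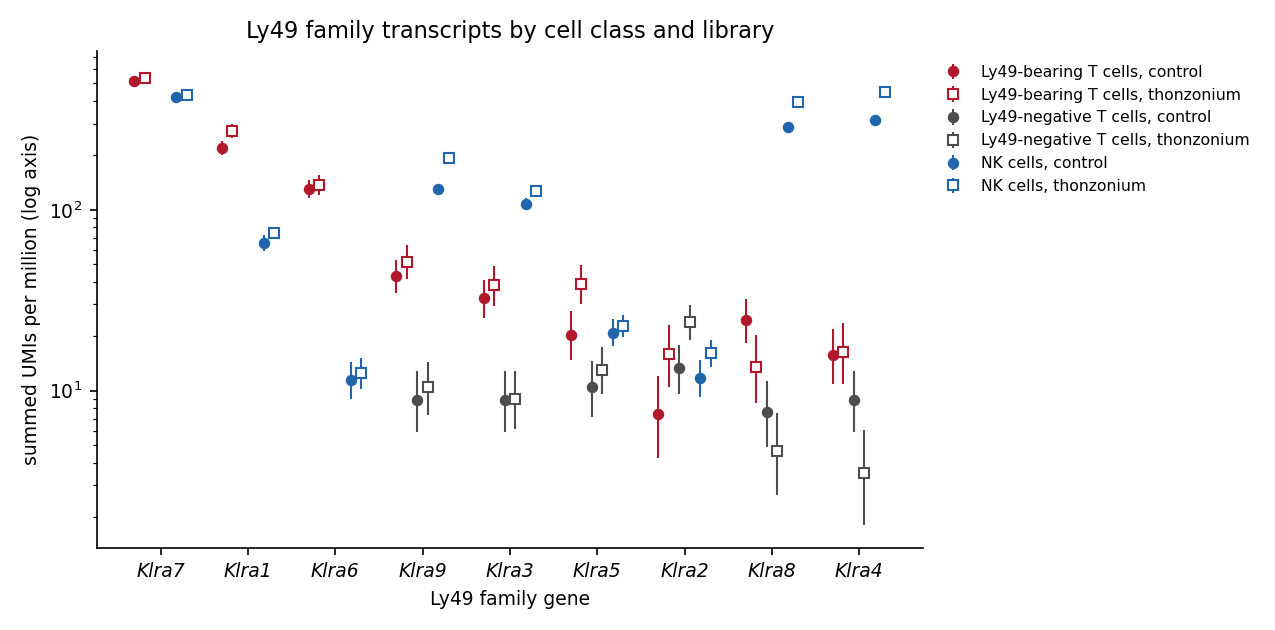
CPM of each Ly49 gene (log axis) in Ly49-bearing T cells, Ly49-negative T cells and NK cells of each library, with exact Poisson intervals for counting error. Klra1, Klra6 and Klra7 were set by the rule; Klra4 and Klra8 were at 13.5 to 24.6 CPM in members and at 287 to 448 CPM in NK cells.

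The lower edge of the rule held cells that looked more like NK cells than the rest. Members had a median of 13 and 16 CD3 UMIs, and only 28 and 9 of them had exactly 2. Those 28 and 9 cells had Tyrobp at 903 and 1964 CPM and Klra4 at 75.2 and 480 CPM. Cells just outside, with 1 CD3 UMI, numbered 98 and 14 and had Tyrobp at 1363 and 1783 CPM. Cells left out for a single Ncr1 UMI numbered 44 and 46, with Tyrobp at 810 and 1354 CPM and Cd3d at 487 and 514 CPM. A further 52 and 67 cells were left out for 2 or more Ncr1 UMIs, with Tyrobp at 1483 and 1734 CPM and Cd3d at 466 and 371 CPM. The members are thus only the part of the CD3 and Ly49 cells in which no Ncr1 UMI was found. A single Ly49 UMI was all that 102 control members (31.3%) and 35 thonzonium members (16.9%) had, while 113 (34.7%) and 98 (47.3%) had 6 or more.

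B cells are not known to transcribe these Ly49 genes, and they served as a measure of stray UMIs. At least 1 Klra1, Klra6 or Klra7 UMI was found in 11.2% of control B cells (7.13% to 16.4%) and 3.75% of thonzonium B cells (2.28% to 5.80%). Most of these were Klra7 UMIs, in 9.64% and 2.57% of B cells, and Klra6 was found in 0 of 197 control B cells, which allows a share of cells with a UMI of up to 1.52% (3 counts), and in 0.198% of thonzonium B cells. Among T cells under the same gate the share was 33.5% (30.5% to 36.5%) and 28.9% (25.6% to 32.4%), 326 of 974 and 207 of 716 cells. Median depth was 3841 and 3730.5 UMIs in B cells and 6169 and 7882 in members. After thinning each cell to 1000 UMIs, 18.1% and 16.3% of T cells and 4.64% and 1.39% of B cells held such a UMI. The share in T cells was thus above that in B cells in both libraries at equal depth. When Klra7 alone did not count and a Klra1 or Klra6 UMI was required, a choice made after seeing the B cell values, the share of T cells was 20.6% and 21.9%, so the thonzonium share was then the higher one.

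The markers named for this population were not all higher in it. Cd3d and Trbc2 (the beta chain constant gene) were present as in other T cells, with Trbc2 at 1238 and 1354 CPM against 1071 and 1305 in Ly49-negative T cells. Ly6c2, which encodes the memory-associated surface antigen Ly6C, was at 2946 and 3429 CPM against 1689 and 1863 (1.74-fold, 1.68 to 1.81, and 1.84-fold, 1.78 to 1.91). Trdc, the delta chain constant gene, was at 159 and 143 CPM against 170.4 and 335, so it does not mark the members apart from other T cells. Ly49-negative T cells passed every part of the rule but had no Klra1, Klra6 or Klra7 UMI, 648 and 509 cells with a median of 4076 and 5559 UMIs.

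The members were mostly CD8 T cells and T cells with no coreceptor UMI. Cd8a or Cd8b1 without Cd4 was found in 149 control members (45.7%, 40.2% to 51.3%) and 68 thonzonium members (32.9%). No Cd4, Cd8a, Cd8b1 or Trdc UMI was found in 129 (39.6%, 34.2% to 45.1%) and 113 (54.6%). Cd4 without Cd8 was rare, in 13 (3.99%) and 2 (0.966%), and Trdc without a coreceptor was found in 34 (10.4%) and 24 (11.6%). A single control member held both Cd4 and Cd8 UMIs. In Ly49-negative T cells the CD4 share was higher, 16.7% and 14.3%, and the share without any of these genes lower, 35% and 24.8%. A missing UMI does not show a missing protein. When the rule was applied again to counts thinned to 1000 UMIs, it found 157 and 112 cells. Of these, 77.1% and 81.2% had none of these genes.

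**Figure D2:**
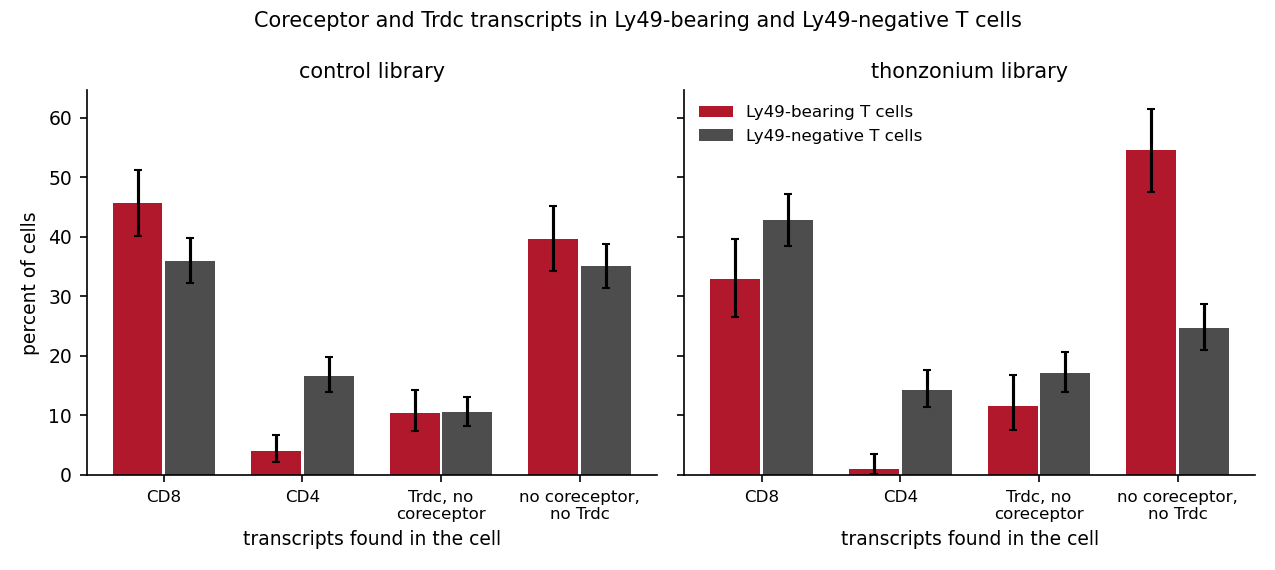
Percent of cells in each coreceptor and Trdc group for Ly49-bearing and Ly49-negative T cells of each library, with exact binomial intervals for counting error. CD4 cells made up 3.99% and 0.966% of members and 16.7% and 14.3% of Ly49-negative T cells.

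Within the CD8 genes the members leaned away from Cd8b1, whose product forms the alpha-beta coreceptor with that of Cd8a. Cd8b1 was at 129 and 71.1 CPM in members and 271 and 398 CPM in Ly49-negative T cells, ratios of 0.477 and 0.179. Cd8a was at 208 and 108 CPM against 294 and 349, ratios of 0.708 and 0.308. Both CD8 genes were therefore lower in members, and Cd8b1 more so in each library.

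Most members held a UMI of the alpha chain constant gene. That gene, Trac, was found in 70.9% and 75.4% of members and in 62.3% and 75.4% of Ly49-negative T cells, against 3.05% and 0.593% of B cells and 10.9% and 9.61% of NK cells. After thinning the shares were 29.2% and 25.6% of members and 31.8% and 39.4% of Ly49-negative T cells. A Trbc UMI was found in 94.8% and 98.1% of members, 86.4% and 94.5% of NK cells and 24.4% and 10.1% of B cells. The mere presence of a Trbc UMI thus did not set T cells apart from NK cells here. By summed level, 7 of 8 measured T cell receptor constant and CD3 genes were at least 1.5-fold higher in members than in NK cells. Members were chosen for at least 2 CD3 UMIs and NK cells for none, which sets part of this gap. Only 23 and 19 members (7.06% and 9.18%) had 5 or more Trdc UMIs, against 5.71% and 14.9% of Ly49-negative T cells. No Trac, Trbc or Trdc UMI was found in 12 and 4 members.

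Gamma chain constant transcripts were common in members although most were not gamma-delta cells by Trdc. A Tcrg-C UMI was found in 39.0% and 52.2% of members and in 14.2% and 23.2% of Ly49-negative T cells, and after thinning in 12.5% and 16.4% against 8.03% and 11.1%. Trac and Tcrg-C UMIs stood together in 28.8% and 37.2% of members. Rearranged gamma genes are known to be transcribed in some alpha-beta T cells. Tcrg-C2 was 2.15-fold and 1.59-fold higher and Tcrg-C4 2.17-fold and 1.80-fold higher than in Ly49-negative T cells, while Tcrg-C1 had ratios of 0.960 and 0.486. These constant genes are near copies of each other, so the split of counts among them is uncertain.

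A gamma variable segment was read in 79 and 66 members, and in most of them it was Trgv2. It was found in 64 control members (19.6%) and 57 thonzonium members (27.5%), against 9.10% and 11.6% of Ly49-negative T cells. Thinning left 5.33% and 7.25% of members against 4.01% and 1.78%. Of the Trgv2 members, 51 of 64 and 40 of 57 also held a Trac UMI, while in Ly49-negative T cells it was 25 of 59 and 29 of 59. For members these are shares of 79.7% and 70.2%, close to the 70.9% and 75.4% of all members with a Trac UMI. Alpha variable segments were read in 85 and 60 members and were spread over 42 and 29 different segments, and Trav13-4-dv7, the most frequent in control members, was in 11 and 6 of them, tied with Trav16 in thonzonium members. Beta segments, read in 55 and 43 members, were spread over 17 and 15. The invariant NKT cell regulator Zbtb16 (PLZF) was found in 1.23% and 1.45% of members.

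Against Ly49-negative T cells of the same library, 118 of 7496 genes with at least 50 UMIs (1.57%) were at least 1.5-fold higher in members in both libraries, and 378 (5.04%) at least 1.5-fold lower. Other NK-type lectin receptors were among the higher genes: of 10 measured, 6 were at least 1.5-fold higher and 1 lower, with a median log2 ratio of 0.92 and 0.94 against 0.02 and -0.01 over all genes. Klrb1c, the NK1.1-family receptor NKR-P1C, was at 143 CPM against 26.9 in the control library (5.31-fold, 4.16 to 6.83). In the thonzonium library it was at 195 CPM against 23.3 (8.38-fold, 6.55 to 10.8). Klrb1c UMIs were found in 37.1% and 54.6% of members, 8.64% and 8.06% of Ly49-negative T cells and 6.09% and 4.35% of B cells, and after thinning in 10.0% and 14.5%, 2.84% and 2.38%, and 2.58% and 1.39%. Its order among the classes thus held at equal depth, while in Ly49-negative T cells it was near the B cell background. Klre1, which encodes a subunit of lectin heterodimers, was 2.68-fold and 3.14-fold higher, at 326 and 311 CPM. Klrd1 (CD94) and the activating NKG2C gene Klrc2 were 1.41-fold and 1.52-fold and 1.92-fold and 1.80-fold higher. The lower gene was Klrg1, a receptor of short-lived effector cells, with ratios of 0.188 and 0.329.

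Of the 4 Ly49 genes outside the rule that were measured in this comparison, 3 were at least 1.5-fold higher in members and 1 lower. Klra9 was 4.87-fold and 4.94-fold higher (2.67-fold in the control library with equal cell weights). Klra2, a Ly49 gene of myeloid cells, had ratios of 0.558 and 0.665. Reads of the rule genes may be among those counted to Klra9 and Klra3.

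Cd160, a receptor of cytotoxic lymphocytes for HVEM and MHC class I, was 3.64-fold (2.93 to 4.55) and 4.26-fold (3.41 to 5.34) higher in members. It was found in 37.7% and 49.3% of members, 11.0% and 12.6% of Ly49-negative T cells and 0% and 1.58% of B cells, where the 0 again stands for 0 of 197 control cells. Cd7, an immunoglobulin-family receptor of T and NK cells, was at 174 and 228 CPM against 55.1 and 44.5 (3.15-fold and 5.12-fold). Cd244a, the SLAM-family receptor 2B4, was 2.61-fold and 2.10-fold higher, and Crtam, an adhesion receptor of cytotoxic T cells, 2.31-fold and 2.73-fold. Of the 8 NK cell markers, 6 were at least 1.5-fold higher in members and 0 lower, with a median log2 ratio of 1.20 and 1.11. The members with only 2 CD3 UMIs, which had NK-like levels of Tyrobp, are among these cells. Under the stricter gate, which leaves them out, Klrb1c, Klre1, Cd160, Cd7, Cd244a and Crtam were still at least 1.5-fold higher in both libraries. Klhdc2, Rbpms, Samd3 and Ctla2b also stood among the 12 highest genes, with ratios from 2.11 to 2.88.

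**Figure D3:**
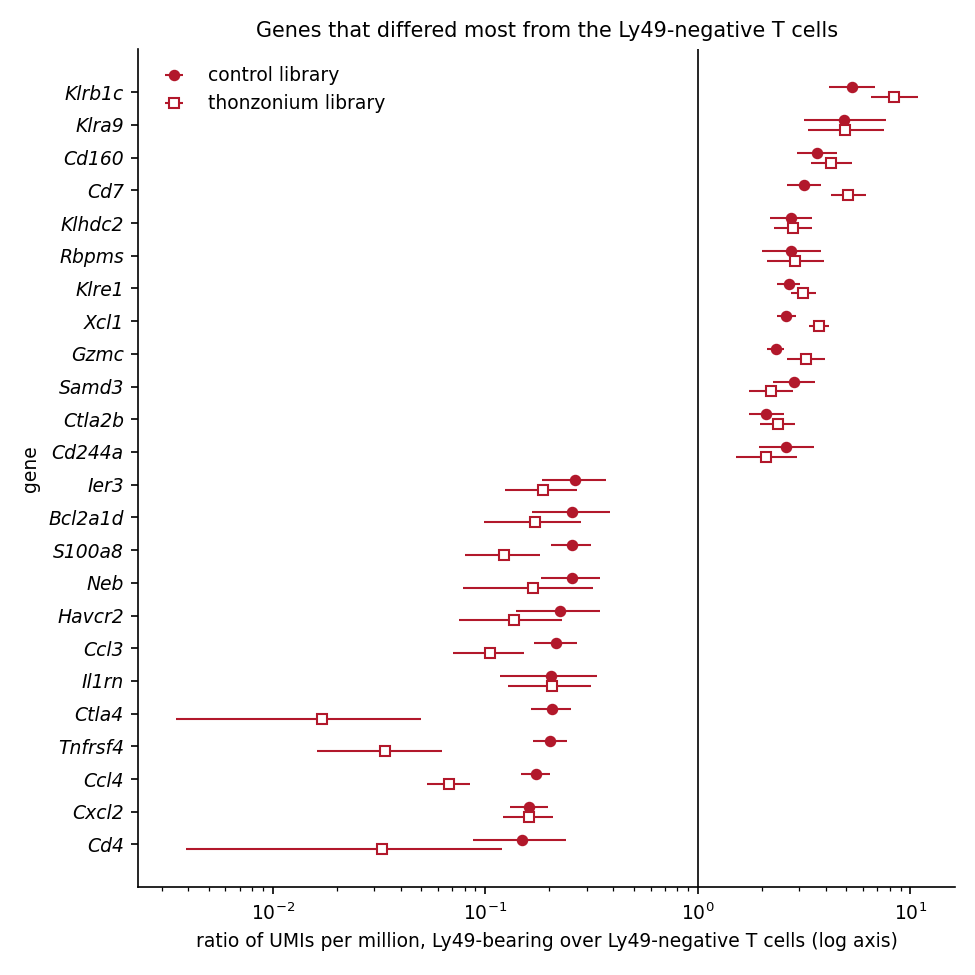
Ratio of CPM in Ly49-bearing over Ly49-negative T cells (log axis) for the 12 highest and 12 lowest genes by the naming rule, 1 point per library with its interval for counting error. Klrb1c stood at 5.31 and 8.38, Cd4 at 0.149 and 0.0326.

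Genes of innate-like and virtual memory CD8 T cells, which gain a memory phenotype without meeting foreign antigen, were higher in part: of 13 measured, 5 were at least 1.5-fold higher and 1 lower, with a median log2 ratio of 0.39 and 0.57. Il2rb, the IL-2 and IL-15 receptor beta chain, was at 788 and 805 CPM against 469 and 421 (1.68-fold and 1.91-fold). Bcl2, which protects memory cells from death, was 1.73-fold and 1.99-fold higher, and Eomes, a transcription factor of memory CD8 and NK cells, 2.33-fold and 1.71-fold. Ikzf2, which encodes Helios and is known from Ly49-bearing regulatory CD8 T cells as well as Foxp3 cells, was at 835 and 809 CPM against 581 and 322 (1.44-fold, 1.34 to 1.53, and 2.51-fold, 2.32 to 2.72). The thonzonium ratio for Ikzf2 was 1.21 after thinning and applying the rule again.

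Fcer1g, the Fc receptor gamma chain through which several NK receptors signal, was detected in more members than Ly49-negative T cells. It was found in 64.4% and 74.9% of members, 36.7% and 35.2% of Ly49-negative T cells, 91.8% and 99.3% of NK cells and 18.3% and 20.2% of B cells. At 1000 UMIs per cell the shares were 34.5% and 42.0% of members, 20.1% and 17.8% of Ly49-negative T cells and 10.8% and 10.1% of B cells. The order was the same at both depths. Summed Fcer1g CPM were 1.92-fold and 1.42-fold higher in members, and 4.14-fold and 5.04-fold once cells with 2 or more B cell, macrophage or neutrophil marker UMIs were left out of both classes. Ikzf2 was found in 75.2% and 80.7% of members and 4.57% and 1.38% of B cells. Both genes together were found in 171 of 326 (52.5%) and 129 of 207 (62.3%) members, near the product of the separate shares (48.4% and 60.4%). In Ly49-negative T cells both were found in 16.8% and 15.3%, and in B cells in 2.03% and 0.988%. After thinning to 1000 UMIs, both were found in 18.2% and 20.8% of members and in 6.86% and 3.96% of Ly49-negative T cells.

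For the adaptor gene Tyrobp the direction depended on the processing. Its sum was 246 and 317 CPM in members against 283 and 313 in Ly49-negative T cells, ratios of 0.871 and 1.01. The control ratio was 1.46 under the stricter gate, 2.09 after thinning with the rule applied again and 1.81 without cells holding B cell, macrophage or neutrophil marker UMIs. The thonzonium ratio was 2.40 and 3.13 under the latter alternatives. Tyrobp UMIs were found in 42.9% and 46.4% of members and in 39.6% and 29.1% of B cells, and after thinning in 17.6% and 17.9% against 16.0% and 12.5%. NK cells had them in 93.2% and 98.8%.

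**Figure D4:**
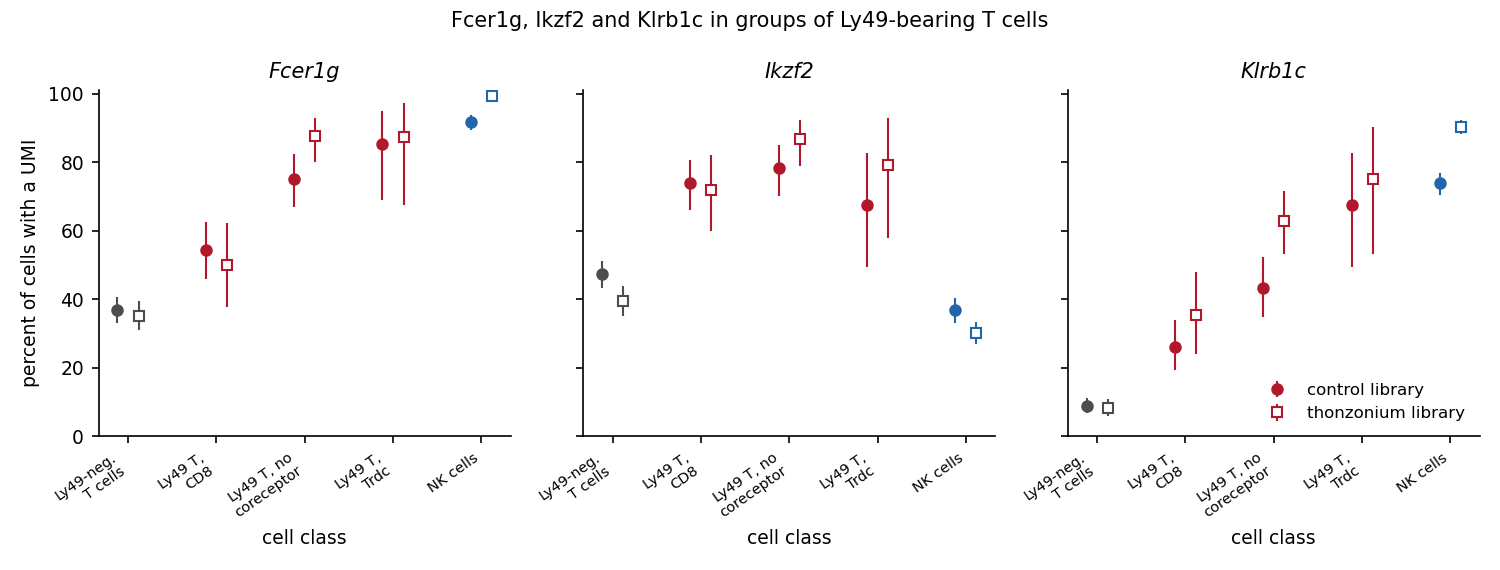
Percent of cells with a UMI of Fcer1g, Ikzf2 or Klrb1c in Ly49-negative T cells, in CD8 members, members with no coreceptor or Trdc UMI and Trdc members, and in NK cells of each library, with exact binomial intervals. Klrb1c was in 26.2% and 35.3% of CD8 members, 43.4% and 62.8% of members with none and 8.64% and 8.06% of Ly49-negative T cells.

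Chemokine and effector genes differed in both directions. Xcl1, a chemokine for cross-presenting dendritic cells, was at 501 and 534 CPM against 192 and 143 (2.61-fold and 3.72-fold). Ccl5 was 1.81-fold and 1.64-fold higher, but the thonzonium ratio was 0.701 after thinning and applying the rule again. Ccl4 and Ccl3, chemokines of freshly activated T cells, were lower: Ccl4 was at 83.6 and 45.8 CPM against 484 and 679, ratios of 0.173 and 0.0675. Over the chemokine and homing list, 4 of 22 measured genes were at least 1.5-fold higher and 7 lower. Of 17 cytotoxic genes, 3 were higher and 1 lower. The cathepsin gene Ctsw was 1.81-fold and 1.92-fold higher. Prf1 (perforin) had ratios of 0.913 and 0.392, and Ifng of 0.586 and 0.309. Gzmc, among the 12 highest by rule, was also found in 52.8% and 14.4% of B cells. Its ratio of 2.33 in the control library was 0.686 after thinning and applying the rule again.

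Checkpoint and exhaustion genes were lower in members: 9 of 14 measured were at least 1.5-fold lower in both libraries, with a median log2 ratio of -0.93 and -1.26. The 2 that were higher were Cd160 and Cd244a, described above as NK-type receptors. Pdcd1 (PD-1) was at 41.8 and 20.6 CPM against 79.8 and 124, ratios of 0.523 and 0.165. Havcr2 (TIM-3) was at 11.1 and 8.81 CPM against 49.7 and 64.6, and Lag3 had ratios of 0.518 and 0.115. Ctla4, an inhibitory receptor of activated and regulatory T cells, was at 44.6 and 1.76 CPM against 217 and 104 (ratios of 0.205 and 0.0170). The costimulatory receptor gene Tnfrsf4 (OX40) had ratios of 0.203 and 0.0339. These 5 genes were lower in members in both libraries under every alternative run for this comparison. Equal weights per lineage group were not among those alternatives, and the CD4 share was higher in Ly49-negative T cells. The part of that share in the ratios of checkpoint and regulatory T cell genes was not tested.

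Genes of the regulatory T cell programme and of recent activation were lower too. Of 7 regulatory T cell genes measured, 5 were at least 1.5-fold lower and 0 higher, with Il2ra at ratios of 0.318 and 0.177. Of 11 immediate early genes, 4 were lower and 0 higher. Dusp1, a phosphatase gene induced by stress and activation, had ratios of 0.428 and 0.386. Heat shock and MHC class I genes, 10 and 11 measured, had 0 members past 1.5-fold in either direction.

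Components of T cell receptor signalling were lower in part, 5 of 18 measured and 0 higher. Cd5, a receptor that damps the signal, was at 61.7 and 34.1 CPM against 125 and 102 (0.493 and 0.334), and Cd6, a related receptor, had ratios of 0.510 and 0.431. Themis, needed for thymic selection, had ratios of 0.526 and 0.296. Il7r, the receptor for the survival cytokine IL-7, was at 224 and 308 CPM against 513 and 544 (0.436 and 0.566). Ccr7, a homing receptor of naive cells, had ratios of 0.294 and 0.398. Rora and Cd163l1, genes of innate-like and IL-17 type cells, had ratios of 0.317 and 0.251 and of 0.719 and 0.0363.

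Cxcl2, Il1rn, S100a8 and Ier3, genes of myeloid cells, also stood among the 12 lowest, with ratios from 0.123 to 0.266. Bcl2a1d, a survival gene of activated leukocytes, had ratios of 0.256 and 0.172, and Neb of 0.255 and 0.168. Macrophage markers summed to 246 and 409 CPM in members (6 of 6 markers detected) and 519 and 790 CPM in Ly49-negative T cells, and neutrophil markers to 146 and 37.6 CPM against 516 and 345 CPM. Without cells holding such UMIs, the control ratio of Ier3 was 1.03. The part of free RNA and doublets in the myeloid genes was not tested.

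Members with and without a coreceptor UMI differed in few genes. Of 3821 genes compared between members with no coreceptor or Trdc UMI and CD8 members, 23 (0.602%) were at least 1.5-fold higher in both libraries and 10 (0.262%) lower. Of 6 NK lectin-like genes compared, 1 was higher and 0 lower, and of 6 NK markers, 2 were higher and 0 lower. Klrb1c was 2.86-fold and 2.95-fold higher without a coreceptor. Fcer1g was at 855 and 896 CPM without a coreceptor, 351 and 488 CPM in CD8 members and 1012 and 929 CPM in Trdc members. Klra1 was at 321 and 358 CPM without a coreceptor and 156 and 166 CPM in CD8 members, while Klra6 was at 122 and 144 against 137 and 139 CPM. Klra1 and Klra6 are genes of the rule, so their levels are given as descriptions only, and the group without a coreceptor UMI depends on depth. Klra4 was at 36.1 and 21.4 CPM without a coreceptor and at 4.39 and 7.90 CPM in CD8 members. The members with exactly 2 CD3 UMIs had Klra4 at 75.2 and 480 CPM, and their part in the differences between these groups was not tested.

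Of 15 T cell receptor signalling genes, 1 was lower without a coreceptor and 0 higher. It was Cd6, with ratios of 0.331 and 0.469 for cells without a coreceptor over CD8 members. Ly6c2 was at 2553 and 3361 CPM without a coreceptor and 3257 and 3601 CPM in CD8 members. Both Fcer1g and Ikzf2 were found in 66 of 149 (44.3%) and 28 of 68 (41.2%) CD8 members and in 81 of 129 (62.8%) and 85 of 113 (75.2%) members without a coreceptor. Gzma, which encodes granzyme A, was at 375 and 106 CPM without a coreceptor, 102 and 166 CPM in CD8 members and 333 and 1133 CPM in the 34 and 24 Trdc members, so its order changed between the libraries.

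Against NK cells, 517 of 8697 genes (5.94%) were at least 1.5-fold higher in members in both libraries and 650 (7.47%) lower. T cell receptor constant and CD3 genes outside the rule were higher, 7 of 8, and 9 of 16 receptor signalling genes were higher with 0 lower. NK cells were chosen for having no CD3 UMI and members for having them, so the choice of cells sets part of the gap in T cell genes. Trac was at 403 and 362 CPM against 14.1 and 11.8 in NK cells. The gap for Trdc was far narrower, 159 and 143 against 52.3 and 61.6 CPM, and 28.4% and 35.2% of NK cells held a Trdc UMI, which unrearranged transcripts in NK cells are known to give. Bcl11b, the factor that fixes T cell identity, was 22.3-fold and 35.5-fold higher (10.1-fold and 21.9-fold with equal cell weights). Cd5, Cd6, Cd8a, Nsg2 and Plcg1 were 27.9-fold to 107-fold higher, but with only 4 to 36 UMIs each in NK cells. Ikzf2 was at 835 and 809 CPM against 93.7 and 77.3, and Ly6c2 was 6.71-fold and 7.38-fold higher. Of 12 naive and memory genes, 8 were higher and 0 lower, with Il7r 17.4-fold and 17.8-fold and Tcf7 3.46-fold and 3.03-fold higher. Interferon-stimulated genes were higher in 9 of 16, with Ifit3 3.54-fold and 3.47-fold.

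The killing machinery and the NK receptors were lower in members than in NK cells. Of 20 cytotoxic genes, 11 were at least 1.5-fold lower and 2 higher, and of 11 NK lectin-like genes, 9 were lower and 0 higher. Gzma was at 225 and 231 CPM against 3537 and 5536, and Prf1 had ratios of 0.0988 and 0.0485. The granzyme genes Gzmc, Gzmd and Gzme had ratios of 0.0592 to 0.0736 in the control library and 0.00773 to 0.0237 in the thonzonium library. Members could hold no Gzmk and fewer than 3 Gzmf UMIs while NK cells had no such limit, and Gzmf lies in a cluster with these genes, so the rule itself sets part of this gap. Members also had no Ncr1 UMI while NK cells were chosen for having one, which sets part of the gap in NK receptors and markers. Fcer1g had ratios of 0.311 and 0.341 and Tyrobp of 0.132 and 0.146. Klrc1 (NKG2A), an inhibitory partner of CD94, was close to the NK level, with ratios of 0.859 and 0.992. Cd160 ran the other way and was 3.5-fold and 3.29-fold higher in members. NK markers summed to 1666 and 1954 CPM in members, 938 and 1143 CPM in Ly49-negative T cells and 8662 and 11473 CPM in NK cells.

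Between the treatments, Ly49-bearing T cells made up 5.08% (4.55% to 5.64%) of all kept cells in the control library and 3.55% (3.09% to 4.06%) in the thonzonium library. As a share of T cells under the gate they were 33.5% and 28.9%, with intervals that overlap. At least 1 UMI of the rule's Ly49 genes was also found in 11.2% and 3.75% of B cells. A single such UMI was all that 31.3% and 16.9% of members had. With a Klra1 or Klra6 UMI required, a choice made after seeing the data, the order of the T cell shares reversed. The CD8 group was 45.7% and 32.9% of members and the group without a coreceptor 39.6% and 54.6%. Shares of a sorted pool depend on every other population in it, and 1 library per treatment gives no spread between tumours.

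Between thonzonium and control members, 260 of 6833 genes (3.81%) were at least 1.5-fold higher and 346 (5.06%) lower. Erythroid marker RNA, all 4 measured genes of it lower, was 23922 CPM in control and 1722 CPM in thonzonium members, and its part in the other ratios was not tested. Among genes higher in members than in Ly49-negative T cells, Ly6c2, Ikzf2 and Il2rb differed little between the libraries. Others differed more, with ratios of 1.31 for Cd7, 1.27 for Fcer1g and 0.266 for Gzmc. Ly6c2 had a ratio of 1.16 (1.12 to 1.21), Ikzf2 of 0.969 (0.903 to 1.04) and Il2rb of 1.02 (0.951 to 1.10). Klrb1c and Ccl5 were 1.36-fold and 1.48-fold higher in the thonzonium library. None of 16 interferon genes, 11 MHC class I genes and 14 V-ATPase genes, the proton pump that thonzonium is known to inhibit in yeast, was past 1.5-fold, and their median log2 ratios were -0.04, -0.02 and 0.11 against -0.01 over all genes.

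Checkpoint genes were lower in thonzonium members, 6 of 11 measured at least 1.5-fold lower and 1 higher, with a median log2 ratio of -0.62. The higher one was Nr4a1, an early target of receptor signalling, with a ratio of 1.54 that was 0.994 under the stricter gate. Ctla4 was at 44.6 CPM in control members, in 35 cells, and at 1.76 CPM in thonzonium members, in 2 cells. Tnfrsf4 was at 62.7 and 5.87 CPM, a ratio of 0.0937. Icos, a costimulatory receptor, was at 88.7 and 37.0 CPM, but its ratio was 0.835 under the stricter gate. Pdcd1 was at 41.8 and 20.6 CPM. Lag3 had a ratio of 0.331, and of 0.630 when the lineage groups were given equal weight in both libraries. Of 6 regulatory T cell genes measured, Ctla4 and Tnfrsf4 among them, 3 were lower and 0 higher. The control members also held more cells with a single Ly49 UMI (31.3% against 16.9%) and had a higher CD4 share. The part of these differences in the ratios was not tested.

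Heat shock chaperones and immediate early genes leaned lower in thonzonium members. Of 10 heat shock genes, 3 were at least 1.5-fold lower and 0 higher (median log2 ratio -0.44). Hspa1b was at 412 and 199 CPM (ratio 0.484, 0.425 to 0.549) and Hspa1a at 275 and 131 CPM. Jun, part of the AP-1 factor, was at 849.6 and 523 CPM. Hspa1a and Hspa1b are near copies of each other, and their counts may be split between them. Of 11 immediate early genes, 2 were lower and 1 higher (median -0.37). Ide, which encodes the insulin-degrading enzyme, was at 91.9 and 38.8 CPM (ratio 0.422, 0.314 to 0.560), in 130 of 326 and 47 of 207 cells, with no cell giving over 2.02% of control UMIs. Prf1 had a ratio of 0.518, and Cd8a and Cd8b1 of 0.517 and 0.551, which were 0.735 and 0.786 with equal lineage weights.

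Of the 12 highest genes by the naming rule in thonzonium members, most are genes of myeloid and antigen-presenting cells. Cd74 and H2-Ab1, genes of MHC class II presentation, were 2.48-fold (2.17 to 2.85) and 2.23-fold higher. Cd74 was at 151 and 375 CPM, in 28.5% and 34.3% of members. Ccl12 and Ccl2, monocyte chemokines, were at 6.5 and 64.6 CPM and at 29.7 and 126 CPM, with 46.4% and 36.3% of the thonzonium UMIs from 1 cell each. Hmox1, the haem-degrading enzyme gene, was at 6.96 and 58.7 CPM, with 95% of its thonzonium UMIs from 1 cell and a ratio of 1.26 with equal cell weights. Beside them, macrophage markers summed to 246 CPM in control members and 409 CPM in thonzonium members, and at least 2 such UMIs were found in 11.3% and 16.4% of members. Their part in these ratios was not tested. The other myeloid genes of the 12, Marcks, Fcgr1, H2-Aa, Tgfbi, Lst1 and Slfn4, had ratios from 1.94 to 2.42, and Slfn4 had 0.669 without cells holding B cell, macrophage or neutrophil marker UMIs. Slfn9, a Schlafen gene, was spread over more cells, at 31.6 and 62.9 CPM (1.99-fold, 1.46 to 2.74), in 55 (16.9%) and 61 (29.5%) members.

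The lowest ratio among the 12 lowest genes by the naming rule, which leaves out haemoglobin, belonged to Spp1 (osteopontin), at 184 CPM in control and 13.5 CPM in thonzonium members, and 56.6% of its control UMIs came from 1 cell. S100a9, Thbs1, Ifitm1 and Gzmc had ratios from 0.213 to 0.352, with 26.9% to 40.0% of the control UMIs of each from 1 cell. Itgav, the integrin alpha V chain, and Lman2l, a cargo receptor of the secretory pathway, were spread more evenly, in 87 control members each, with ratios of 0.476 and 0.480. Collagen-binding integrin chains ran the other way. Itga1 (CD49a) was at 54.8 and 89.3 CPM (1.63-fold) and Itga2 (CD49b) was 1.66-fold higher. In thonzonium members, Itga1 was at 112 CPM without a coreceptor and 36.4 CPM in CD8 members, and in control members at 54.1 and 48.3 CPM.

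**Figure D5:**
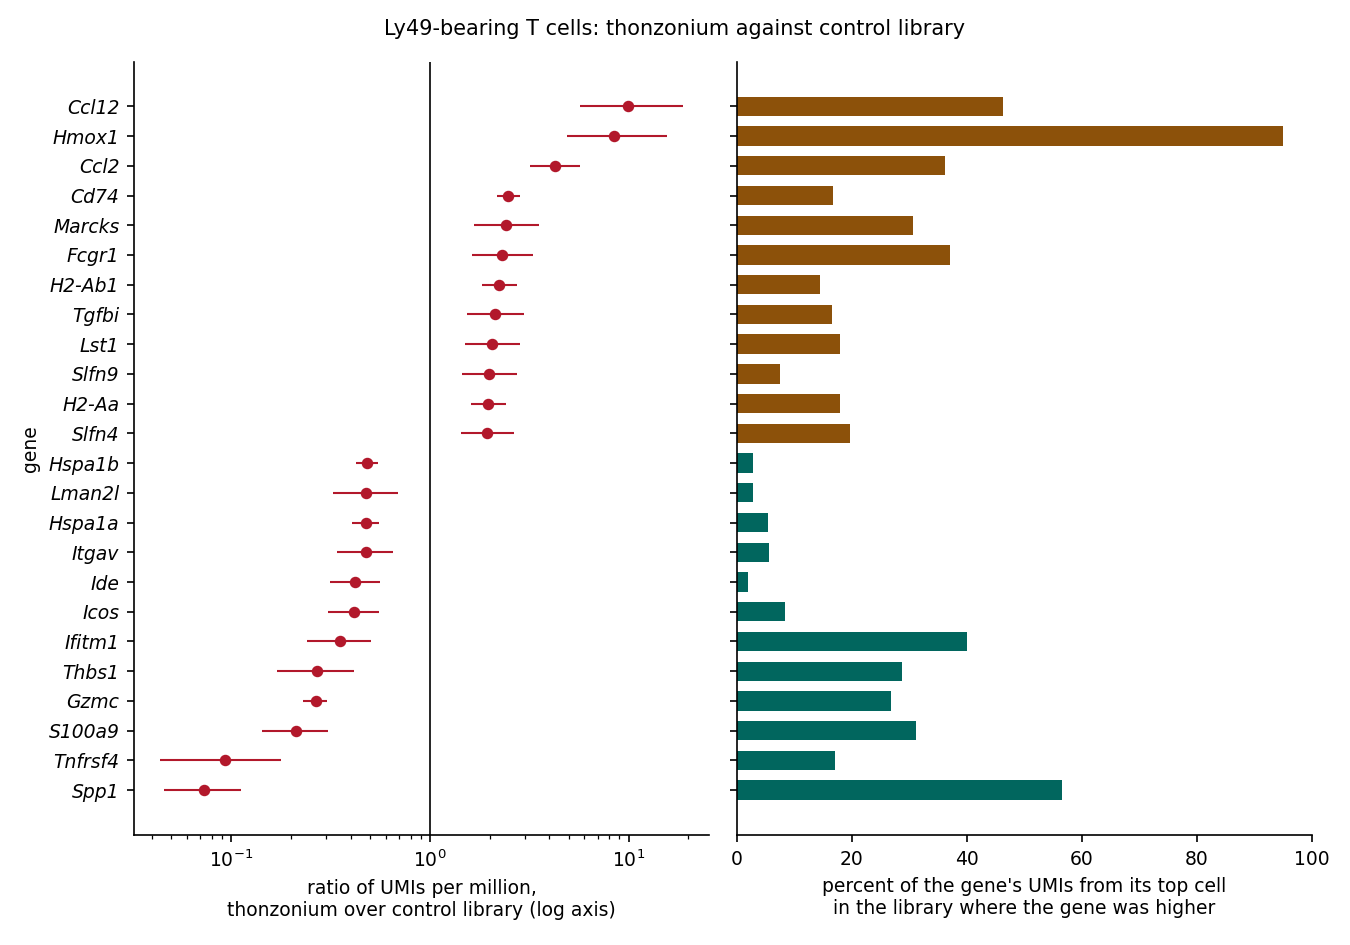
Ratio of CPM in thonzonium over control members (log axis) for the 12 highest and 12 lowest genes by the naming rule, with intervals for counting error and the percent of UMIs given by the cell with the most. Hmox1 (ratio 8.44) had 95% of its UMIs from 1 cell, Ide (ratio 0.422) 2.02%.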

How the data were processed

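Single-cell RNA was measured with the 10x Genomics 3' kit V2, per the labels' protocols, in 1 control and 1 thonzonium library of sorted CD45+ tumour cells. The deposited matrices hold raw UMI counts per gene and barcode, made by the authors with Cell Ranger 6.1.2 per the file headers and with mm10, Seurat 3.0 and R 3.5.3 named in the submitters' processing notes. The mapping and counting settings are not given in the sources used here.

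From these counts, cells were kept and classes set as the report states, UMIs were summed per class and library and scaled to CPM (counts per 1000000 UMIs of a class), and ratios were taken with exact 95% intervals (conditional binomial for ratios, Poisson for levels, Clopper-Pearson for shares), all of which cover counting error only. Python 3.11.15, numpy 2.4.6, scipy 1.17.1, pandas 2.3.3, matplotlib 3.10.9 and Biopython 1.88 were used, and the counting steps were tested on simulated data. No doublet caller was run. A stand-in alternative left out the deepest 10% of cells, and another left out cells with at least 2 marker UMIs of B cells, macrophages or neutrophils. B cells, the measure of stray UMIs, had at least 3 UMIs of B cell markers.

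Genes needed at least 50 UMIs over the cells compared. Named genes were the 12 highest and 12 lowest ratios (8 and 8 against NK cells) with at least 50 CPM in a class, an interval excluding 1 and, where both libraries were compared, the same direction in both, ranked by the smaller log2 ratio; this ranking skipped the genes of the rule, haemoglobin, mitochondrial and ribosomal protein genes, variable segments, Xist and Y genes, and Gm or Rik models. To them were added the most abundant and the extreme members of 30 gene lists and all Ly49, coreceptor and T cell receptor constant genes. Other genes the text gives were chosen after their values were seen. The members and lists were chosen with earlier results of these data known. Thinning drew 1000 UMIs per cell without replacement and left out shallower cells, 7 and 0 of the members. For thinned ratios, gene counts and coreceptor groups the rule was applied again to the thinned counts, so the cells of each class changed. Thinned shares of cells with a UMI kept the classes set at full depth. The other alternatives were a stricter gate, stricter cell filters, equal weights per cell, a minimum of 20 UMIs per gene and a required Klra1 or Klra6 UMI. Equal weights per lineage group were run between the treatments only. With 1 library per group no p-value was computed.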

Additional observations from a re-analysis of the deposited data

Results flagged for a closer look

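For 8 genes members were at least 1.5-fold above the comparison cells in one library and at least 1.5-fold below them in the other, and this difference between the libraries was not tested. Against NK cells, Ctla4 had a ratio of 1.53 in the control library and 0.0463 in the thonzonium library. Ccr9, a gut-homing chemokine receptor, had 1.74 and 0.274. Thbs1, which encodes the matrix protein thrombospondin, had 2.12 and 0.257. The complement genes C1qa and C1qb of macrophages had 2.21 and 0.642, and 1.88 and 0.629. Ccl12 had 0.519 and 1.56, and Hmox1 had 0.494 and 3.89, with 46.4% and 95% of the thonzonium UMIs of members from 1 cell each. Against Ly49-negative T cells, Spp1 had 2.47 and 0.157, with 56.6% of the control UMIs of members from 1 cell. Both C1q genes are macrophage markers, whose sum was 246 and 409 CPM in members, and their part in these ratios was not tested.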

How the results depend on the processing

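No paired analysis was possible because each group is 1 library, and no library could be left out for the same reason. Of the ratios computed under the alternatives, 1815 moved by less than their counting interval, 564 moved further and 18 changed direction. Under the stricter gate, members were 26.7% and 24.8% of T cells and their CD4 share 1.85% and 0%, the ratio of members over Ly49-negative T cells was 1.46 for Tyrobp in the control library, and thonzonium over control was 0.996 for Bcl2 and 0.994 for Nr4a1. With the rule applied again after thinning to 1000 UMIs, members were 157 and 112 cells, 19.7% and 15.0% of T cells. Their CD8 shares were 12.7% and 9.82%, their CD4 shares 0.637% and 0% and their shares with none of the genes 77.1% and 81.2%. Thinning left 38 genes higher and 134 lower than in Ly49-negative T cells, 34 and 57 between the treatments and 67 and 126 against NK cells, fewer genes reaching the UMI minimum. It turned thonzonium Ccl5 (0.701) and Nkg7 (0.911), control Gzmc (0.686) and Tyrobp (2.09) against Ly49-negative T cells, Il7r (0.742) and Tyrobp (0.989) between the treatments, and thonzonium Ccl5 against NK cells (0.604, and 0.766 with equal cell weights). A minimum of 20 UMIs gave 208 and 630 genes against Ly49-negative T cells and 619 and 706 between the treatments. Without cells holding B cell, macrophage or neutrophil marker UMIs, 192 genes were lower than in Ly49-negative T cells and 168 higher under thonzonium, and ratios turned for thonzonium Gzmc (0.566), control Ier3 (1.03) and control Tyrobp (1.81) against Ly49-negative T cells and for Ccl4 (1.18) and Slfn4 (0.669) between the treatments. Requiring a Klra1 or Klra6 UMI, chosen after seeing the data, gave 20.6% and 21.9% of T cells, a difference of 1.29 percentage points in place of -4.56, CD4 shares of 1.49% and 0%, and thonzonium over control ratios of 0.987 for Bcl2 and 1.01 for Trac. The cause of these changes was not tested. Depth limits the coreceptor groups, as their thinned shares show.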

Other observations

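Members sorted by the single Ly49 gene they showed differed in other genes, given here as values of small groups. In the 38 and 29 members with only Klra1, Fcer1g was at 725 and 795 CPM and Cd8a at 128 and 87.9 CPM. In the 28 and 13 members with only Klra6, Fcer1g was at 289 and 300.3 CPM and Cd8a at 337 and 118 CPM. In the 125 and 50 members with only Klra7, Fcer1g was at 447 and 666 CPM and Cd8a at 266 and 160 CPM. Ccl5 was at 1915 and 2673 CPM with only Klra1, 3476 and 4420 CPM with only Klra6 and 1198 and 3154 CPM with only Klra7. The Klra6 group thus had the lowest Fcer1g and the highest Ccl5 of the 3 groups in both libraries.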
